A study of Mus musculus with 6 samples.

Results

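The miR-29 family was followed through 6 small RNA libraries of N2a cells, a mouse neuroblastoma line, which had been made neuron-like with retinoic acid. Its members were chosen by name, as every listed mature miRNA, either arm, whose name begins with miR-29a, miR-29b or miR-29c. That gave 7 of the 685 mature miRNAs listed. They are mmu-miR-29a-3p, mmu-miR-29a-5p, mmu-miR-29b-3p, mmu-miR-29b-1-5p, mmu-miR-29b-2-5p, mmu-miR-29c-3p and mmu-miR-29c-5p. The family was picked from a table whose RSL3 against DMSO levels and arm ratios were already known, so its values in that contrast are a description. Test outcomes are given only as passing a threshold or not, and nothing is read from them.

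All cells received 10 µM retinoic acid over 96 h. The RSL3 group (3 libraries) then had 5 µM RSL3, an inhibitor of the lipid peroxide reductase GPX4 that induces ferroptosis, for 24 h, and the DMSO group (3 libraries) had the solvent. The cells are 1 tumour-derived line, and the labels do not say whether libraries of a group came from separate cultures, so the spread between them may be technical. No measure of cell death is among the values used here.

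A miRNA hairpin is cut into a duplex with a 5p and a 3p arm, and usually the arm loaded into Argonaute is kept while its partner is lost. Target choice rests mainly on the seed, bases 2 to 8 of the mature strand. The miR-29 3p arms are known for repressing collagens and other matrix genes, the DNA methyltransferases Dnmt3a and Dnmt3b, and, in mouse neurons, pro-apoptotic BH3-only genes. They are known to increase as the brain matures.

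The mature sequences, from RefSeq on GRCm38.p6, are shown because the family is defined by its 3p seed. A further reason is that the arms of miR-29c had far more similar read counts than those of miR-29a and miR-29b. Capitals mark the seed.
mmu-miR-29a-3p: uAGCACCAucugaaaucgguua
mmu-miR-29b-3p: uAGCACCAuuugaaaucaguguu
mmu-miR-29c-3p: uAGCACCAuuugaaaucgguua
mmu-miR-29a-5p: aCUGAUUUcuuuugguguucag
mmu-miR-29b-1-5p: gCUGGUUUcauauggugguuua
mmu-miR-29b-2-5p: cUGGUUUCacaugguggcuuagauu
mmu-miR-29c-5p: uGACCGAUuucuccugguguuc

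The 3 3p arms share the seed AGCACCA, and no other miRNA in the RefSeq table used here has it. With positions counted from 1 at the 5′ end, miR-29a-3p and miR-29c-3p differ only by C10U. From miR-29c-3p to miR-29b-3p the substitutions are G18A, U21G and A22U, and miR-29b-3p is 1 base longer. Only miR-29b-3p ends in AGUGUU, an element known in human cells to send it to the nucleus. The 4 5p arms have 4 different seeds, none shared with the 3p arms. Nor was any shared with another listed miRNA among the 554 that have a RefSeq sequence. Of the 5p arms, only miR-29c-5p begins with U, as all 3 3p arms do.

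The family comes from 4 loci in 2 clusters. The hairpins are shown with both mature arms in capitals, since the arm balance is read from them.
Mir29a: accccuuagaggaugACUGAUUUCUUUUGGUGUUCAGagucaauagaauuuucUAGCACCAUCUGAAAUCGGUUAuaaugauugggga
Mir29b-1: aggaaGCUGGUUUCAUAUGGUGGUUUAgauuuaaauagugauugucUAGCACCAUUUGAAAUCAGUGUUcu
Mir29b-2: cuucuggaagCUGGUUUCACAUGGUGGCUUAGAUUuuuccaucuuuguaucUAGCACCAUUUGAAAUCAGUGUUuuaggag
Mir29c: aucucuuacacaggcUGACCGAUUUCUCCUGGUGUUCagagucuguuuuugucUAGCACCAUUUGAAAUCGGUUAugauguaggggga

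On GRCm38, Mir29a (chr6:31062660-31062747) and Mir29b-1 (chr6:31063023-31063093) lie on the minus strand, 275 bases apart. In the GENCODE annotation Mir29a overlaps no other gene, and Mir29b-1 overlaps the 3′ end of the long non-coding RNA Gm27019 on the same strand by 2 bases. Mir29b-2 (chr1:195037040-195037120) and Mir29c (chr1:195037547-195037634) lie on the plus strand, 426 bases apart. Both are inside an exon of the retained-intron transcript A330023F24Rik-204, and antisense to an untranslated region of Cd46, a complement regulator. Mature miR-29b-3p is identical from both copies, so its reads cannot be divided between the clusters.

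Levels are in the deposited unit, CPM scaled by an edgeR TMM library factor (CPM below), where CPM is the number of reads relative to the size of the library. The listed miRNAs held 3406276 to 4989380 reads in RSL3 libraries and 4306460 to 6058006 in DMSO libraries, so 1 read was worth 0.157 to 0.314 CPM. Library pairs had Pearson's r of 0.990 to 0.994 within a group and 0.987 to 0.993 between groups across the 666 tested miRNAs, which are not independent replicates. The unit is relative to the miRNA reads of a library and cannot show the amount of miRNA in a cell.

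The family made up 0.177% to 0.254% of the signal of a library, and nearly all of it was 3p arm. The 3p arms held 97.0% to 98.3% of the family's signal. Within the 3p sum, miR-29a-3p took 87.1% to 90.3%, miR-29b-3p 8.61% to 11.5% and miR-29c-3p 0.753% to 1.37%. These shares overlapped between the groups: miR-29a-3p made up 89.2% ± 1.78 in RSL3 and 89.0% ± 0.931 in DMSO libraries (SD, n = 3 each). Most copies of the family's 3p seed were thus on 1 member.

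The most abundant member, miR-29a-3p, had 1920.4, 1600.4 and 1672 CPM in RSL3 libraries 1 to 3, against 1912, 2146 and 1993 CPM in DMSO libraries 1 to 3. RSL3 library 1 lay among the DMSO values and the other RSL3 libraries lay below them, so the groups overlapped. The means were 1731 ± 168 CPM in RSL3 and 2017 ± 119 CPM in DMSO libraries, a log2 fold change of -0.22 ± 0.11 (SE) on the log2(CPM + 1) scale. It ranked 55th of the 666 tested miRNAs by level.

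The second member, miR-29b-3p, had 191, 211 and 160 CPM (159.6 in the third) in RSL3 libraries, against 216, 213 and 242 CPM in DMSO libraries. Every RSL3 library was below every DMSO library, but RSL3 library 2 missed DMSO library 2 by less than 2 CPM. The means were 187 ± 25.97 CPM in RSL3 and 223 ± 16.1 CPM in DMSO libraries, a log2 fold change of -0.26 ± 0.13 (SE), and -0.15 without RSL3 library 3.

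The least abundant 3p arm, miR-29c-3p, had 16.01, 25.1 and 22.7 CPM in RSL3 libraries, against 25.7, 24.9 and 24.4 CPM in DMSO libraries. RSL3 library 1 stood low, while RSL3 library 2 lay inside the narrow DMSO range. The log2 fold change was -0.25 ± 0.19 (SE), -0.06 without RSL3 library 1 and -0.37 without RSL3 library 2.

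**Figure D1:**
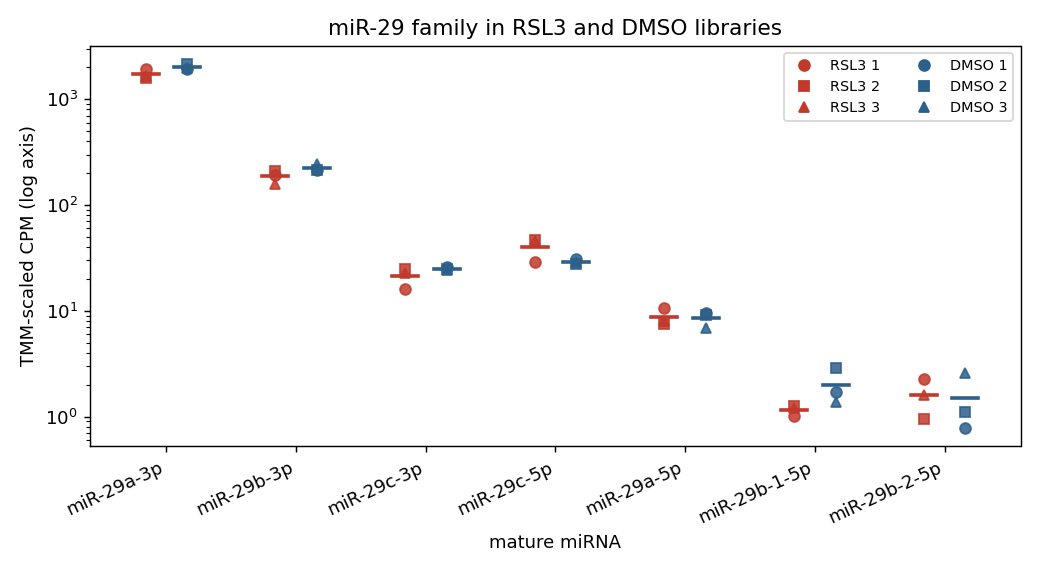
Levels of the 7 miR-29 members in TMM-scaled CPM (log axis), with 1 symbol per library and a bar at the mean, RSL3 left and DMSO right for each miRNA. The 3p arms run from miR-29a-3p at 1600.4 to 2146 CPM down to miR-29c-3p at 16.01 to 25.7 CPM, and miR-29c-5p sits above miR-29c-3p.

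The summed 3p signal was 2127, 1837 and 1855 CPM in RSL3 libraries, against 2153, 2383 and 2259 CPM in DMSO libraries. The groups did not overlap, by a margin of RSL3 library 1 just under DMSO library 1. Taken singly, 12.0% of all tested miRNAs had non-overlapping groups with RSL3 lower. The mean sum was 1939.6 ± 163 CPM in RSL3 and 2265 ± 115 CPM in DMSO libraries, 0.856 of the DMSO level. The log2 ratio of these means was -0.22, and -0.19 to -0.30 when each library was left out in turn.

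Among the 5p arms, miR-29c-5p was the most abundant, with 67.5% to 82.9% of the 5p sum. It had 28.97, 47.1 and 45.3 CPM in RSL3 libraries, against 30.7, 27.7 and 29.1 CPM in DMSO libraries. RSL3 libraries 2 and 3 stood far above the DMSO range and RSL3 library 1 lay inside it. The means were 40.5 ± 9.98 CPM in RSL3 and 29.2 ± 1.49 CPM in DMSO libraries, a 1.39-fold ratio of means and a log2 fold change of 0.43 ± 0.19 (SE). Without RSL3 library 1 the log2 fold change was 0.65, without RSL3 library 2 it was 0.30 and without RSL3 library 3 it was 0.33.

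The partner strand of the dominant member, miR-29a-5p, had 10.7, 7.53 and 8.02 CPM in RSL3 libraries, against 9.56, 9.10 and 6.89 CPM in DMSO libraries. The groups overlapped fully, and the log2 fold change of 0.03 ± 0.22 (SE) turned negative without DMSO library 3 (-0.10), without RSL3 library 1 (-0.11) and after rescaling without the 5 most abundant miRNAs (-0.016). The 2 arms that tell the miR-29b copies apart were near the detection limit. In reads, miR-29b-1-5p had 4, 4 and 6 in RSL3 libraries, against 11, 13 and 7 in DMSO libraries, and miR-29b-2-5p had 9, 3 and 8 in RSL3 libraries, against 5, 5 and 13 in DMSO libraries.

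At 3 to 13 reads per library these 2 arms cannot show which cluster supplied the miR-29b-3p reads. The log2 fold changes were -0.44 ± 0.28 for miR-29b-1-5p, where the groups did not overlap, and 0.10 ± 0.32 for miR-29b-2-5p (SE). For miR-29b-1-5p the value was -0.24 without DMSO library 2, -0.18 with a pseudocount of 5 CPM, and -0.75 in edgeR and -0.77 in DESeq2 on the recovered reads. For miR-29b-2-5p it turned negative without DMSO library 1 (-0.10) and without RSL3 library 1 (-0.08).

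All 7 members reached 1 CPM in at least 3 libraries and were tested with the other miRNAs. In limma 0 of the 7 passed an adjusted p of 0.05, where 0.751% of the 666 tested miRNAs did. In edgeR's quasi-likelihood test on the recovered reads 0 of 7 passed (background 0.901%). In DESeq2 0 passed of the 4 members given an adjusted p (background 10.5% of 382 miRNAs). At an unadjusted p under 0.05 each tool had 1 member higher, miR-29c-5p, and 0 lower. Over all 666 tested miRNAs the shares at that threshold were 8.86% higher and 8.41% lower in limma, 8.86% and 8.11% in edgeR, and 7.21% and 7.06% in DESeq2, so 1 of 7 is near the background. Non-overlapping groups with RSL3 lower were seen in 2 of 7 members, miR-29b-3p and miR-29b-1-5p, against 12.0% of all tested miRNAs, and with RSL3 higher in 0 of 7, against 12.3%. The median log2 fold change was -0.22 over the 7 members, of which 3 were positive and 4 negative, and 0.0013 over all tested miRNAs. Nothing is read from these counts, since the contrast was known when the family was picked.

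**Figure D2:**
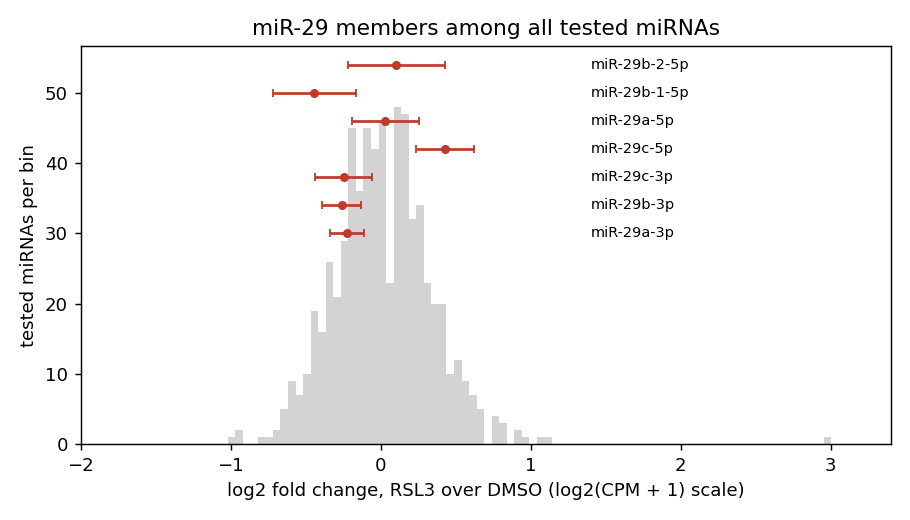
Log2 fold changes of RSL3 over DMSO libraries, on the log2(CPM + 1) scale, for the 7 members (points with SE bars, set at arbitrary heights) above the histogram of all 666 tested miRNAs. The 3p arms lie at -0.22, -0.26 and -0.25, and miR-29c-5p at 0.43.

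The arm balance differed widely between precursors. For miR-29a the 5p arm held 0.553%, 0.468% and 0.477% of the reads of both arms in RSL3 libraries, against 0.498%, 0.422% and 0.344% in DMSO libraries. That is a mean of 200.3 ± 17.8 3p reads per 5p read in RSL3 and 242 ± 45.0 in DMSO libraries (SD, n = 3 each), and the groups overlapped. Each library's Wilson 95% interval was wide, since only 24 to 61 reads were 5p: the lowest bound was 0.248% and the highest 0.746%. All intervals given here cover counting error only.

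For miR-29b, with the 5p arms of both copies summed, the 5p share was 1.70%, 1.03% and 1.73% in RSL3 libraries, against 1.15%, 1.84% and 1.60% in DMSO libraries. The groups overlapped, on 7 to 20 5p reads per library. So 3p was by far the main arm of both miR-29a and miR-29b.

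In miR-29c the arms were far closer to equal in reads than in miR-29a and miR-29b. The 5p arm had more reads in all 6 libraries. How evenly both arms were captured in sequencing was not tested, so read counts do not give their amounts in the cell. The 5p share was 64.4%, 65.2% and 66.7% in RSL3 libraries, against 54.4%, 52.7% and 54.4% in DMSO libraries. The 3 RSL3 values lay together, above all 3 DMSO values, which also lay together. As reads of 5p per read of 3p, the values were 1.81, 1.88 and 2.00 in RSL3 libraries, against 1.20, 1.12 and 1.19 in DMSO libraries. Both arms together had 177, 230 and 339 reads in RSL3 libraries, against 360, 237 and 272 in DMSO libraries.

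The mean 5p share of miR-29c was 65.4% ± 1.14 in RSL3 and 53.9% ± 0.973 in DMSO libraries (SD, n = 3 each). At this depth single libraries are imprecise, and the widest Wilson 95% interval ran from 57.1% to 71.1% (RSL3 library 1) in the RSL3 group and from 46.4% to 59.0% (DMSO library 2) in the DMSO group, so these intervals overlap. With the reads of each group added up, the share was 65.7% (Wilson 95% interval 62.2% to 69.0%, 746 reads) in RSL3 and 54.0% (50.6% to 57.3%, 869 reads) in DMSO libraries. These pooled intervals treat the reads of a group as independent and leave out differences between libraries. They are no test of the difference between the groups.

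**Figure D3:**
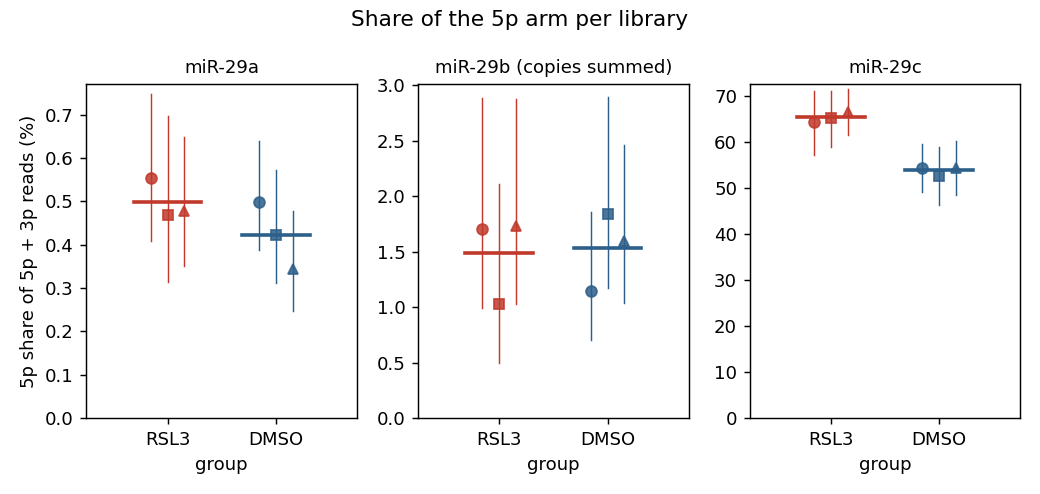
Share of 5p reads among the 5p and 3p reads of miR-29a, miR-29b (the 5p arms of its 2 copies summed) and miR-29c, in percent, RSL3 left and DMSO right, with a separate axis for each precursor. Symbols are libraries 1 (circle), 2 (square) and 3 (triangle), thin lines their Wilson 95% intervals and thick bars the group means; miR-29c is at 64.4% to 66.7% in RSL3 and 52.7% to 54.4% in DMSO libraries.

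On the log2((CPM of 5p + 1)/(CPM of 3p + 1)) scale the miR-29c ratio was 0.89 ± 0.08 in RSL3 and 0.22 ± 0.05 in DMSO libraries (SD), a change of 0.67 ± 0.16 (SE) toward 5p. The SD within a group was smaller than the counting error of the log2 ratio of reads in a single library, 0.15 to 0.23, so the closeness of the 3 libraries of a group is no measure of the precision of the ratio. The miR-29a ratio was -7.48 ± 0.10 in RSL3 and -7.74 ± 0.24 in DMSO libraries, a change of 0.25 ± 0.20 (SE), and 0.13 without DMSO library 3.

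The arm levels behind the miR-29c ratio differed between the RSL3 libraries. In RSL3 library 1 the 5p arm was at 28.97 CPM, inside the DMSO range, and the 3p arm at 16.01 CPM was below it. In RSL3 library 2 the 3p arm was at 25.1 CPM, inside the DMSO range, and the 5p arm at 47.1 CPM was above it. In RSL3 library 3 the 5p arm was at 45.3 CPM, above the DMSO range, and the 3p arm at 22.7 CPM a little below it. These 3p levels rest on 63, 80 and 113 reads in RSL3 libraries 1 to 3. Their counting error was not set against the narrow DMSO range, so small distances from it carry no weight. The signal of both arms together was 45.0, 72.2 and 68.0 CPM in RSL3 libraries, against 56.4, 52.6 and 53.5 CPM in DMSO libraries.

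**Figure D4:**
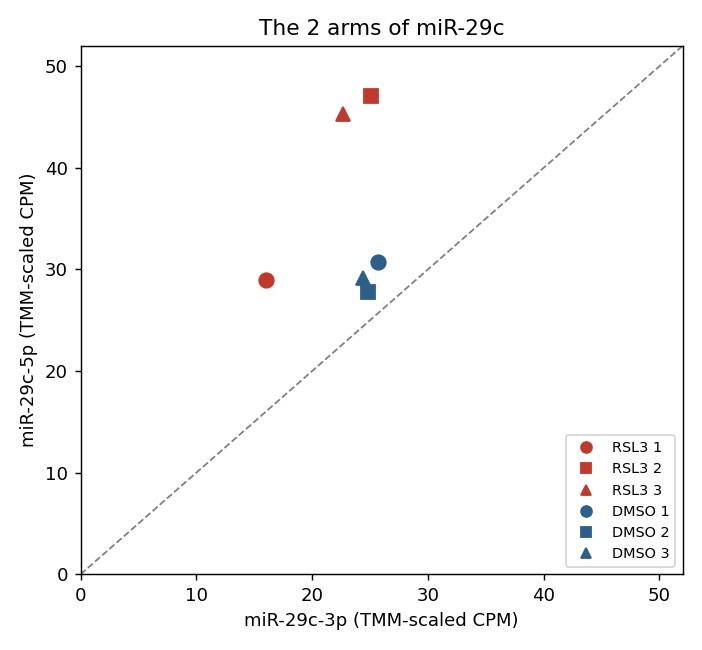
Levels of the 2 arms of miR-29c in TMM-scaled CPM, miR-29c-3p on the x axis and miR-29c-5p on the y axis, with 1 symbol per library and a dashed line where the arms are equal. The DMSO libraries lie together just above the line, RSL3 library 1 lies to their left at 16.01 and 28.97 CPM, and RSL3 libraries 2 and 3 lie above them at 47.1 and 45.3 CPM of the 5p arm.

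The arm ratio could be tested for 182 precursors with both arms past the same level filter, miR-29a and miR-29c among them. In limma 0 of these 2 passed an adjusted p of 0.05, where 2.75% of the 182 did, and 1 of them, miR-29c, had an unadjusted p under 0.05, toward 5p, where 8.24% of the 182 did. With a pseudocount of 5 CPM miR-29c passed (background 6.04%), and it passed with both arms required to reach 10 CPM (background 5.56% of 108 precursors). Groups that did not overlap, with RSL3 higher in the 5p to 3p ratio, were seen in miR-29c and not in miR-29a, against 9.34% of the 182. Nothing is read from these outcomes, passes included, since the arm ratios were known when the family was picked.

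By mean ratio over the 6 libraries, miR-29c ranked 81st of 182 from the 5p end, at 0.55, between miR-30e (0.56) and miR-669a (0.55). It was 1 of 40 precursors whose arms were within 1 log2 unit of each other. The miR-29a ratio ranked 177th, at -7.61, between miR-488 (-7.51) and miR-23b (-8.87), so few precursors were more 3p-biased. By change toward 5p, miR-29c ranked 5th of 182 and miR-29a 35th. In size of change regardless of direction, miR-29c ranked 19th.

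**Figure D5:**
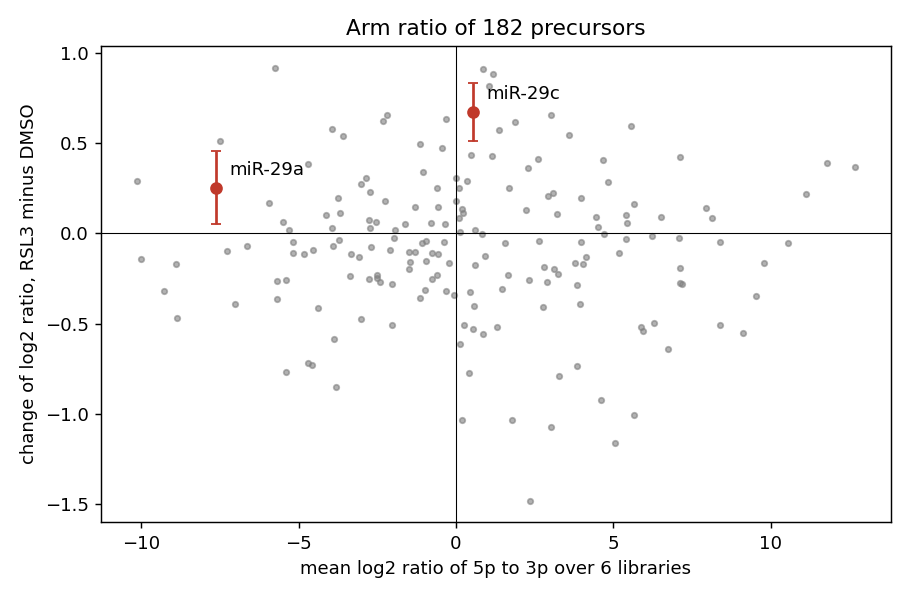
Change of the log2 ratio of 5p to 3p, RSL3 minus DMSO, against its mean over 6 libraries, for 182 precursors (grey), with miR-29a and miR-29c in red with SE bars. The miR-29c point lies near equal arms at a change of 0.67, and miR-29a lies at the 3p end at a change of 0.25.

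The miR-29c-3p count rests on 1 base. It differs by C10U from miR-29a-3p, which had 120, 63.8 and 73.8 times as many reads in RSL3 libraries, against 74.4, 86.3 and 81.7 times in DMSO libraries, and the groups overlapped. How reads with a mismatch were assigned is not given in the sources used here, and how many reads passed between these members was not tested.

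The members did not follow a common course over the 6 libraries. Pearson's r of log2(CPM + 1), a description over 6 libraries that share their scaling, was 0.49 between miR-29a-3p and miR-29b-3p, 0.21 between the arms of miR-29c, 0.34 between the arms of miR-29a, and -0.96 between miR-29a-3p and miR-29c-5p. Among 413 other miRNAs with a mean of at least 10 CPM, those most like miR-29a-3p were miR-151-5p (r = 0.98), miR-181d-5p (0.98) and miR-126a-5p (0.98). Those most like miR-29b-3p were let-7a-5p (0.95), miR-409-3p (0.94) and miR-465b-5p (0.93). For miR-29c-3p they were miR-27b-5p (0.92), miR-323-3p (0.91) and miR-770-3p (0.85), and for miR-29c-5p miR-497b (0.99), miR-24-2-5p (0.96) and miR-582-5p (0.95). These were the highest of 413 values each and say nothing of shared control.

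Other miRNAs with roles like those of miR-29 were read from 3 lists, whose counts stand against the shares over all tested miRNAs: 0.751% called in limma, 0.901% in edgeR and 10.5% of 382 in DESeq2, and 8.86% higher and 8.41% lower at an unadjusted p under 0.05 in limma. Among 18 tested arms of miRNAs known for neuronal maturation, 0 were called in limma, edgeR or DESeq2, with 1 higher (miR-9-5p) and 1 lower (miR-212-5p) at an unadjusted p under 0.05 in limma. Their median log2 fold change was -0.06, with miR-218-5p at -0.28 and miR-9-5p at 0.39 as the most abundant. Among 19 arms of matrix or fibrosis regulators 0 were called in limma or edgeR, with 1 higher and 2 lower unadjusted, and DESeq2 called miR-30c-2-3p lower. Their median was 0.09, with miR-21a-5p at 0.30 and miR-30d-5p at -0.06. Among 14 arms of miRNAs known to repress DNA or histone methylation enzymes 0 were called in limma or edgeR, with 3 higher and 2 lower unadjusted, and DESeq2 called miR-152-5p lower. Their median was 0.11, with miR-143-3p at -0.0011 and miR-148b-3p at -0.65.

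Known miRNA markers of other cell types were detected in these bulk libraries of 1 cell line. Their levels are set beside the results and do not show that such cells were present. In bulk libraries fewer cells of a type and less miRNA per cell cannot be told apart. The 10 arms of the fibroblast, endothelial and smooth muscle list summed to 2745 to 2978 CPM in RSL3 libraries, against 2991 to 3600 CPM in DMSO libraries, without overlap and in the same direction as the 3p sum of miR-29. In it 2 arms had positive and 8 negative log2 fold changes, DESeq2 called miR-145a-5p lower and miR-126a-3p higher, and limma and edgeR called 0, with 1 higher and 4 lower unadjusted. Among the 4 lower were miR-199a-3p and miR-199b-3p, with nearly the same means (478.1 and 477.4 CPM in RSL3, 611.1 and 611.0 CPM in DMSO libraries). The list's sum and counts may thus hold the same reads more than once. Over all tested miRNAs DESeq2 called 10.5% of 382, and 8.86% were higher and 8.41% lower unadjusted in limma. Taken singly, 12.0% of the tested miRNAs had non-overlapping groups with RSL3 lower. Defining members were detected, with miR-145a-5p at 666 CPM in RSL3 and 952 CPM in DMSO libraries and miR-126a-3p at 802 CPM in RSL3 and 614 CPM in DMSO libraries. Their part in the miR-29 levels was not tested. The 5 glial arms summed to 198 to 249 CPM in RSL3 libraries, against 193 to 234 CPM in DMSO libraries. The 5 listed blood and immune arms summed to 134 to 201 CPM in RSL3 libraries, against 120 to 153 CPM in DMSO libraries. The 10 neuron-like arms summed to 193044 to 248432 CPM in RSL3 libraries, against 224536 to 308556 CPM in DMSO libraries, and the groups overlapped. Most of this sum was miR-7a-5p, with means of 181728 CPM in RSL3 and 225023 CPM in DMSO libraries, so it says little of the other arms. Log2 fold changes were positive for 2 arms, miR-9-5p (0.39) and miR-124-3p (0.25), and negative for 8.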

How the data were processed

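Per the labels' protocols, total RNA was ligated to adapters at both ends, reverse transcribed, amplified and size-selected for small RNAs, then sequenced on an Illumina instrument. The build was GRCm38, and cutadapt, Bowtie and edgeR were used, per the submitters' processing notes. Tool settings, the miRNA release and how multiply matching reads were handled were not given in the sources used here. Some entries had the same values. For example, miR-297a-3p, miR-297b-3p and miR-297c-3p each had a mean of 268 CPM and a log2 fold change of -0.12. Such entries were tested as separate miRNAs, so the shares over all tested miRNAs and precursors hold some values more than once. Values were deposited as a signal named CPM. Divided by the smallest step of its library, 100% of values came out whole (within 0.01), and the steps fitted edgeR's TMM factors (0.936 to 1.05), so the authors' signal is TMM-scaled CPM, and reads were recovered by this division. Plain CPM had been assumed in the design.

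Using R 4.3.3, limma 3.58.1 was fitted with a variance trend to log2(CPM + 1) of the 666 miRNAs at 1 CPM or more in at least 3 libraries, and to the log2 ratio of 5p to 3p of 182 precursors, two-sided, with Benjamini-Hochberg adjustment at 0.05 over all of them. Fold changes on this scale understate those of low miRNAs. edgeR 4.0.16 and DESeq2 1.42.0 on recovered reads were alternatives. The fits were tested on simulated data. Replicate libraries differed by far more than counting noise (chi-square per degree of freedom 82.8 to 292). The sum ran over all tested miRNAs with at least 20 reads per pair of libraries and does not describe single members. Members, lists and alternatives were chosen with earlier results of these data known. Named miRNAs are all members, the 3 most correlated miRNAs per member, neighbours in the arm ranking, and the called or 2 most abundant members of each list. Others were named after their values were seen: miR-9-5p, miR-212-5p, miR-30c-2-3p, miR-152-5p, miR-126a-3p, miR-124-3p, miR-199a-3p, miR-199b-3p, miR-297a-3p, miR-297b-3p and miR-297c-3p. Mature sequences matched 554 of 685 entries and all 7 members.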

Additional observations from a re-analysis of the deposited data

How the results depend on the processing

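The count of called miR-29 members was 0 under all 18 alternatives run, and the miR-29 members' levels kept the sign of their log2 fold change except for miR-29a-5p and miR-29b-2-5p. For miR-29a-5p it was -0.016 after rescaling without the 5 most abundant miRNAs and from -0.11 to 0.12 over the fits that each lack 1 library. For miR-29b-2-5p these fits gave -0.10 to 0.40. Called arm ratios of the family numbered 0 in the report, 1 at a pseudocount of 5 (miR-29c, change 0.59) and 1 with a 10 CPM filter (miR-29c, change 0.67, with 108 instead of 182 precursors tested), and 0 under the 12 other alternatives, including the later-added one that summed the 5p arms of the miR-29b copies. The cause of the first was not tested. The miR-29c change kept its sign throughout, with 0.63 to 0.71 over the fits lacking 1 library, as did that of miR-29a, with 0.13 to 0.37. In limma, the filter, variance and block settings and the added miR-29b ratio cannot alter such a change, only its error. The log2 ratio of the summed 3p signal was -0.28 after rescaling and -0.30 to -0.19 over the fits lacking 1 library.

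Libraries with the same replicate number did not deviate together (r = -0.35, -0.33 and -0.19 over 666 miRNAs). Between different numbers r ran from 0.041 (RSL3 library 3 with DMSO library 2) to 0.30 (RSL3 library 1 with DMSO library 2). With 3 libraries per group these values cannot show whether the numbers pair the samples. With the replicate number as a block 0 members and 0 arm ratios of the family were called. The miR-29c change was again 0.67, which a balanced block cannot alter, and its SE was 0.23 instead of 0.16.

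Depth limits the miR-29b 5p arms, at 3 to 13 reads per library, and the miR-29c share, at 177 to 360 reads of both arms per library. The miR-29a-5p and both miR-29b 5p arms did not pass the 10 CPM filter and have no value there.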
